A study of Mus musculus with 10 samples.

Results

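Granzyme B, encoded by Gzmb (ENSMUSG00000015437), is a protein-coding gene on the minus strand of mouse chromosome 14, at chr14:56258838-56262260 of GRCm38. It was taken as the row of the count table whose Ensembl identifier maps to the symbol Gzmb, 1 of 49671 gene rows, and it was chosen because its counts graded with the dose of TGF-b under SCF and ran opposite to those of Mcpt2, a chymase gene of the same locus. The differences of Gzmb and Mcpt2 between groups with and without TGF-b, or between doses, are therefore given as descriptions without a test. For these 2 genes a test is given where SCF and IL-3 alone are compared. The SCF libraries of that comparison are also part of the dose grading that chose Gzmb, so this test is not independent of the choice.

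The cells were bone marrow-derived cultured mast cells (BMMCs), mast cells grown out of the marrow of wild type C57BL/6 mice with an age label of 6 to 8 weeks. All had been maintained in IL-3 for 6 to 8 weeks. Libraries were made after 72 h in SCF (stem cell factor, the ligand of the receptor KIT) at 100 ng/mL (n = 2), in SCF plus 1 ng/mL TGF-b (n = 2) and in SCF plus 10 ng/mL TGF-b (n = 2). Without SCF there were cells in IL-3 alone (n = 2), in 1 ng/mL TGF-b (1 library) and in 10 ng/mL TGF-b (1 library). The IL-3 dose differs between the labels (5 ng/mL for growth, 10 ng/mL in the source label). They give no SCF dose for the mixtures, do not say whether IL-3 was present during the 72 h and give no time for IL-3 alone. BMMCs are a culture model without tissue surroundings, and nothing in the labels says that libraries of 1 group came from separate cultures or animals, so a p-value here reflects the spread between libraries, which may be technical. Read counts over genes ranged from 1237382 to 2323916 per library, and 3 counts corresponded to 1.26 to 2.55 CPM, the count scaled to the library's gene counts.

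Granzyme B is a serine protease that cuts after aspartate residues, and it is best known as a killing enzyme of cytotoxic T cells and natural killer (NK) cells. The proenzyme is trimmed by cathepsin C, kept in secretory granules bound to the proteoglycan serglycin, delivered into target cells by the pore former perforin and inhibited by Serpinb9. Mouse mast cells in culture also make it. Its gene is the end member of a cluster of granule protease genes that includes the other granzymes of this cluster, cathepsin G and the mast cell chymases, among them the mucosal chymases Mcpt1 and Mcpt2.

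With TGF-b under SCF, transcript levels of Gzmb and of its closest expressed neighbour Ctsg fell, while those of the mucosal chymase gene Mcpt1 rose. The promoters of these 3 genes are therefore shown. They are the 250 bases before each RefSeq transcript start on GRCm38.p6, read 5′ to 3′ on the strand of the gene: chr14:56262335-56262584 (minus) for Gzmb, chr14:56102575-56102824 (minus) for Ctsg and chr14:56017714-56017963 (plus) for Mcpt1. Capitals mark matches on either strand to AP-1 (TGANTCA), the core of the cyclic AMP response element (CRE, TGACGT), RUNX (TGTGGT) and SMAD (CAGAC).
Gzmb: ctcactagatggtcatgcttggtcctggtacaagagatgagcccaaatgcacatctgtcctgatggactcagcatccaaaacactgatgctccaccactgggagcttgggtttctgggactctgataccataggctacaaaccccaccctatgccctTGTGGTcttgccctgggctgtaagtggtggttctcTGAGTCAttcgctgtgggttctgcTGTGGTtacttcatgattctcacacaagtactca
Ctsg: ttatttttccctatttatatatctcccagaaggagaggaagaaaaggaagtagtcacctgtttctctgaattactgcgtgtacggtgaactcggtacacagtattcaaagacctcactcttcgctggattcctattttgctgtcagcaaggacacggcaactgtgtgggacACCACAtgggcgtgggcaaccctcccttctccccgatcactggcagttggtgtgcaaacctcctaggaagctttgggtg
Mcpt1: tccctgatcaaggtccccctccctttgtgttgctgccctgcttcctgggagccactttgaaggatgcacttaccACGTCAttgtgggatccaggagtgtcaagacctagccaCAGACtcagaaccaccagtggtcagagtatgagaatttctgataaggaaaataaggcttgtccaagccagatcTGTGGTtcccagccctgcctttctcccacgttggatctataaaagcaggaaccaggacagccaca

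In Gzmb, the AP-1 match lay 58 to 52 bases before the RefSeq start, and RUNX matches lay on each side of it, at 93 to 88 and at 34 to 29 bases before the start. Its CRE core lay 5 to 10 bases after the RefSeq start, which is itself 74 bases upstream of the GENCODE start. AP-1, CRE and RUNX elements are known in the granzyme B promoter of lymphocytes. Searching 300 bases around the start (250 before and 50 after) of 32851 RefSeq promoters, 7.81% held the AP-1 letters, 7.51% the CRE core, 16.8% the RUNX letters and 49.6% the SMAD letters. Gzmb had no match to SMAD or to the GATA factor motif, spelled AGATAA, which 11.2% of promoters held. Ctsg held 1 RUNX match and no match to AP-1, the CRE core, SMAD or the GATA factor motif, and Mcpt1 held 1 match each to the CRE core, SMAD and RUNX. E-box letters (CANNTG), present in 72.3% of promoters, matched at 2 positions in Gzmb, at 4 in Ctsg and at none in Mcpt1; 1 E-box in Ctsg overlapped its RUNX match. A match is a description of these letters, not a bound site. Of the 15 genes of the locus in the count table, 13 had a RefSeq promoter in the table used here.

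Gzmb transcripts were abundant in SCF and in IL-3 and much lower wherever TGF-b was present. Its level was 1693 and 1832 CPM in SCF, 149 and 172 CPM in SCF plus 1 ng/mL TGF-b, and 43.3 and 67.3 CPM in SCF plus 10 ng/mL TGF-b. Without SCF it was 1193 and 729.8 CPM in IL-3 alone, 30.5 CPM in 1 ng/mL TGF-b and 19.4 CPM in 10 ng/mL TGF-b. The order of the groups, from high to low, was SCF, IL-3 alone, SCF plus 1 ng/mL TGF-b, SCF plus 10 ng/mL TGF-b, 1 ng/mL TGF-b and 10 ng/mL TGF-b, and no 2 groups shared a value. Down to SCF plus 10 ng/mL TGF-b the neighbours in this order were also separated by more than the counting error of each library, but the next neighbours were not: the lower library of SCF plus 10 ng/mL TGF-b had a 95% Poisson interval of 35.2 to 52.9 CPM, 1 ng/mL TGF-b one of 21.4 to 42.3 CPM, and 10 ng/mL TGF-b one of 12.6 to 28.7 CPM. These intervals cover counting error only, since the protocol names no molecular identifiers.

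Ranked by CPM among the 11247 genes tested, Gzmb stood at 47 and 42 in SCF, at 927 and 740 in SCF plus 1 ng/mL TGF-b, and at 3679 and 2399 in SCF plus 10 ng/mL TGF-b. In IL-3 alone it ranked 58 and 105, in 1 ng/mL TGF-b 4858 and in 10 ng/mL TGF-b 6391. In the groups without TGF-b it was thus among the most abundant messages, and with 10 ng/mL TGF-b and no SCF it fell past the middle of the ranking. Ranked by CPM per kilobase of annotated exon it stood at 2987 in that library, beside 29 and 30 in SCF. In these bulk libraries, fewer cells that make granzyme B and less granzyme B RNA per cell cannot be told apart.

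**Figure D1:**
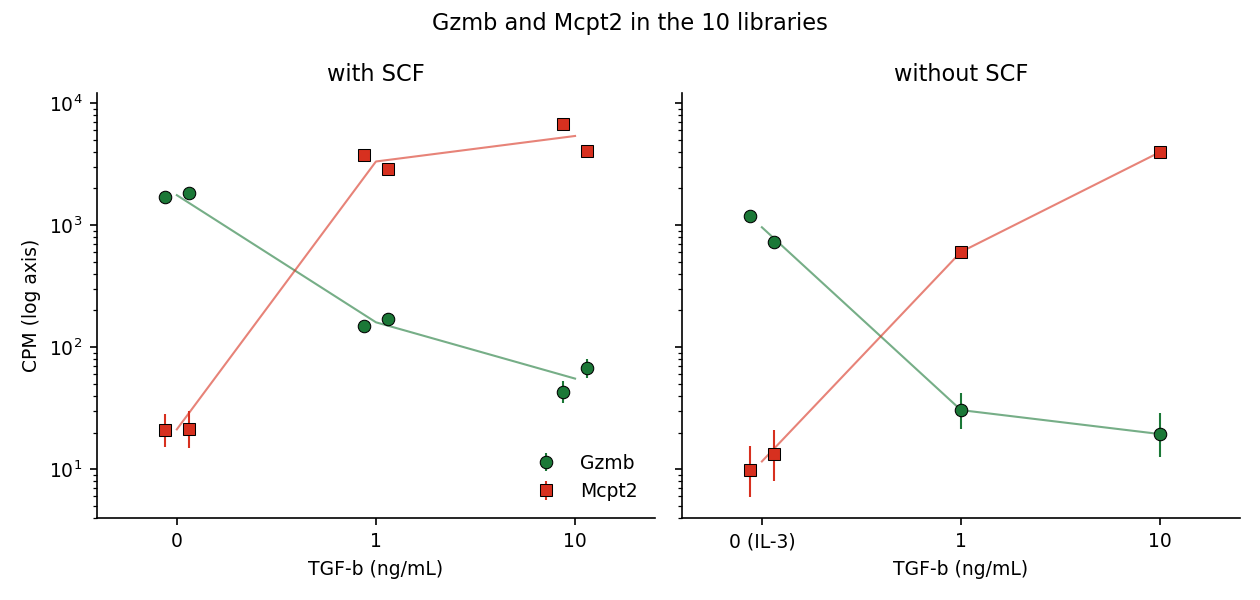
Level of Gzmb (green circles) and Mcpt2 (red squares) in each of the 10 libraries, in CPM on a log axis, against the dose of TGF-b in ng/mL, with SCF on the left and without SCF on the right. Points are libraries, vertical bars their 95% Poisson intervals (counting error only) and lines join group means. Gzmb is at 729.8 CPM or more in the 4 libraries without TGF-b and at most 172 CPM in the 6 with it, and Mcpt2 runs the other way.

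Gzmb was higher in SCF than in IL-3 alone, by less than 2-fold. Its mean level was 1763 ± 98.5 CPM in SCF and 962 ± 328 CPM in IL-3 alone (SD, n = 2 each), and both SCF libraries lay above both IL-3 libraries. The log2 fold change was 0.87 ± 0.19 (SE), a 1.83-fold rise with an adjusted p = 0.00966 (edgeR quasi-likelihood test, Benjamini-Hochberg over all genes), in a comparison in which 9.17% of tested genes were called, 5.71% higher and 3.46% lower. The SCF libraries also entered the choice of Gzmb, so this p-value is not independent of that choice. The call also rested on single libraries. Without the second IL-3 library, the lower one, the log2 fold change was 0.56 and the adjusted p = 0.166, without the second SCF library 0.82 and 0.0748, and DESeq2 on all libraries gave 0.87 and an adjusted p = 0.0755.

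With TGF-b and no SCF, Gzmb stood at 30.5 CPM with 1 ng/mL and 19.4 CPM with 10 ng/mL, against 1193 and 729.8 CPM in IL-3 alone. The log2 difference was -5.30 ± 0.27 (SE), a 39.4-fold lower level, given as a description since the course opposite to Mcpt2 is part of how the gene was chosen. In this comparison 3.48% of tested genes were called, 1.36% higher and 2.12% lower. TGF-b alone is here the mean of both doses with 1 library each, and its spread is assumed to be that of the other groups. Leaving out each library in turn gave -5.63 to -4.91. Between the single libraries of the 2 doses, the count ratio of 10 over 1 ng/mL was 0.636 with a 95% counting interval of 0.366 to 1.09, so a further difference with dose in the absence of SCF was not detectable at this depth.

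Under SCF the level graded with the dose of TGF-b, which is the pattern Gzmb was chosen for. Mean levels were 1763 ± 98.5 CPM in SCF, 160.1 ± 16.2 CPM with 1 ng/mL TGF-b and 55.3 ± 17.0 CPM with 10 ng/mL (SD, n = 2 each), and no library of one dose reached into the range of the next. Against SCF, the log2 difference was -3.46 ± 0.22 (SE) with 1 ng/mL, which left 9.06% of the SCF level, and -5.00 ± 0.24 with 10 ng/mL, which left 3.12%. Between the doses it was -1.54 ± 0.23, a 2.91-fold lower level with 10 than with 1 ng/mL. In that last comparison 0.0178% of tested genes were called, 1 higher (0.00889%) and 1 lower (0.00889%). None was called there by DESeq2 (46 at an unadjusted p under 0.05), by limma-voom (306), with a 10 CPM filter (235) or with only the groups compared (258). The 1 gene called lower was Gzmb itself, and no call is read for it, since it was chosen on this dose grading.

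At matched doses of TGF-b, Gzmb was higher with SCF than without. Its level was 149 and 172 CPM in SCF plus 1 ng/mL TGF-b, against 30.5 CPM in 1 ng/mL TGF-b, and 43.3 and 67.3 CPM in SCF plus 10 ng/mL TGF-b, against 19.4 CPM in 10 ng/mL TGF-b. Averaged over doses the log2 difference was 1.94 ± 0.27 (SE), or 3.83-fold, beside the 1.83-fold of SCF over IL-3 alone. The difference between these log2 differences was 1.07 ± 0.34, and it ranged from 0.68 to 1.39 when each library was left out in turn. These values are descriptions, since they rest on the groups the gene was chosen on. Over all tested genes, 24.7% were called between SCF plus TGF-b and TGF-b alone, 13.3% higher and 11.4% lower.

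Mcpt2, whose product is a chymase of mucosal mast cells, took the opposite course in the same libraries. Its level was 21.0 and 21.4 CPM in SCF, 3779 and 2874 CPM in SCF plus 1 ng/mL TGF-b, and 6719 and 4050 CPM in SCF plus 10 ng/mL TGF-b. Without SCF it was 9.85 and 13.3 CPM in IL-3 alone, 604 CPM in 1 ng/mL TGF-b and 3979 CPM in 10 ng/mL TGF-b. All 6 libraries with TGF-b lay above all 4 without it. On the log2 scale it was higher by 7.29 ± 0.26 with 1 ng/mL TGF-b and by 7.98 ± 0.27 with 10 ng/mL TGF-b under SCF, given as a description since the choice of Gzmb used it.

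SCF against IL-3 alone gave log2 fold changes of 0.87 ± 0.19 for Gzmb and 0.89 ± 0.36 for Mcpt2, the second with an adjusted p = 0.143, which did not pass the test. With TGF-b alone against IL-3 the log2 difference of Mcpt2 was 7.08 ± 0.28 over both doses, again a description. It was 8.45 without the 1 ng/mL library and 5.72 without the 10 ng/mL library, since these libraries differed. Between the single libraries without SCF, the count ratio of 10 over 1 ng/mL was 6.59 for Mcpt2 (95% counting interval 6.09 to 7.13), beside 0.636 for Gzmb. These are 1 library per dose, so the ratios hold no spread between libraries.

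Compared per kilobase of annotated exon, the balance of the 2 messages changed sides. Gzmb stood at 59.5 and 63.2 times Mcpt2 in SCF, at 0.0291 and 0.0441 times in SCF plus 1 ng/mL TGF-b, and at 0.00477 and 0.0123 times in SCF plus 10 ng/mL TGF-b. In IL-3 alone the ratio was 89.6 and 40.4, in 1 ng/mL TGF-b 0.0374 and in 10 ng/mL TGF-b 0.00361. Gzmb was the more abundant of the 2 in all 4 libraries without TGF-b, and Mcpt2 in all 6 with it. Over the 10 libraries, which share their groups and their scaling, the Pearson correlation of log2(CPM + 1) of the 2 genes was -0.869, a description that mainly reflects these 2 sets of libraries.

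**Figure D2:**
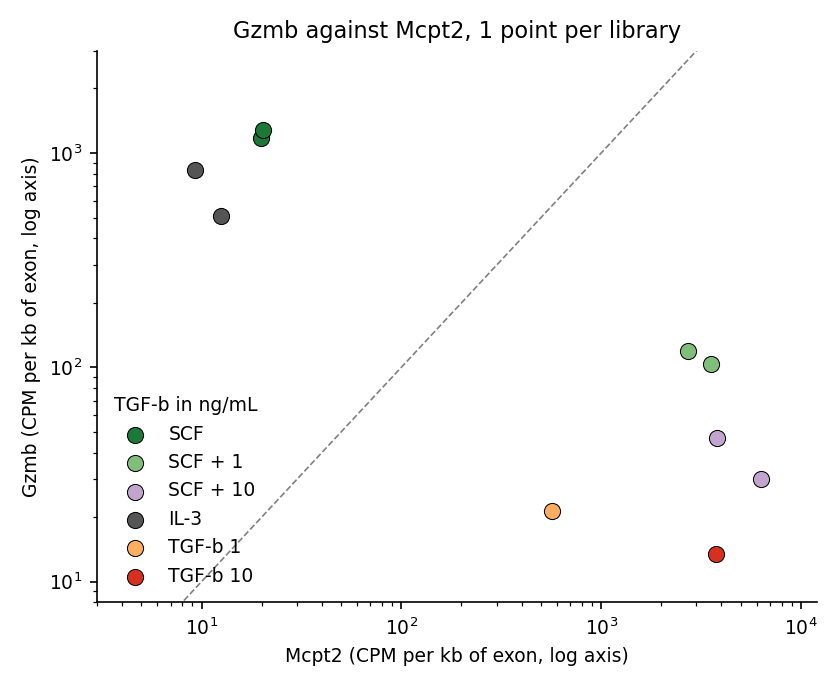
Level of Gzmb (vertical) against Mcpt2 (horizontal) in CPM per kb of annotated exon, both on log axes, with 1 point per library and colours for the 6 groups; the dashed line marks equal levels. The 4 libraries without TGF-b sit above the line, at ratios of 40.4 to 89.6, and the 6 with TGF-b sit below it, at ratios of 0.0441 or less.

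The rest of the protease cluster did not follow Gzmb as a block when TGF-b was added. Of 16 genes listed for the locus, 15 were in the table and 8 passed the filter on low counts, Gzmb included. Of the other 7, SCF against IL-3 alone called 2 higher and none lower, beside the 9.17% of all tested genes. SCF plus 1 ng/mL TGF-b against SCF called 2 higher and 1 lower, in a comparison in which 4.64% of tested genes were called, 1.89% higher and 2.75% lower. SCF plus 10 ng/mL TGF-b also called 2 higher and 1 lower, where 8.37% of tested genes were called, 3.78% higher and 4.59% lower. TGF-b alone against IL-3 called 2 higher and none lower, where 3.48% of tested genes were called, 1.36% higher and 2.12% lower. The 2 called higher with TGF-b were Mcpt2, which is part of how Gzmb was chosen, and Mcpt1, which passed the filter through the groups with TGF-b, so these counts and the medians are descriptions. The median log2 fold change of all 8 was 1.39 in SCF against IL-3, 0.73 and 0.67 with 1 and 10 ng/mL TGF-b under SCF, and 0.98 with TGF-b alone. The median over all tested genes lay between -0.02 and 0.01 in these comparisons. The value of 1.39 rested in part on genes with few counts: Mcpt1, Mcpt4 and Mcpt8 had 0, 7 and 3 counts in IL-3 alone. The abundant Cma1 differed by 0.03 ± 0.14 there. In SCF plus TGF-b against TGF-b alone, where Gzmb was higher, 5 of the other 7 were called higher and none lower. They were Mcpt1, Mcpt2, Mcpt4, Mcpt8 and Ctsg, where 24.7% of tested genes were called, 13.3% higher and 11.4% lower. Mcpt1 and Mcpt2 are again descriptions, and Mcpt4 and Mcpt8 had 6 and 2 counts in 1 ng/mL TGF-b.

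Ctsg, which encodes the granule protease cathepsin G and is the nearest tested gene to Gzmb, 160 kb downstream, moved the same way as Gzmb under SCF. Its level was 71.6 and 90.8 CPM in SCF against 26.4 and 16.1 CPM in IL-3 alone, a log2 rise of 1.89 ± 0.25 with an adjusted p = 0.00016 (edgeR). With TGF-b under SCF, starting from those 71.6 and 90.8 CPM, it was 23.2 and 29.1 CPM at 1 ng/mL and 26.8 and 27.7 CPM at 10 ng/mL, falls of -1.64 ± 0.24 and -1.57 ± 0.23 on the log2 scale with adjusted p = 0.000384 and 0.000304. The doses overlapped, so Ctsg showed no grading like that of Gzmb. With TGF-b alone it was 16.1 CPM at 1 ng/mL and 10.9 CPM at 10 ng/mL, a log2 difference from IL-3 alone of -0.71 ± 0.33 that did not pass the test (adjusted p = 0.312), where the difference of Gzmb was -5.30.

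Mcpt1, the other mucosal chymase gene, 244 kb downstream, went with Mcpt2. It had 1 count over both SCF libraries, 90.1 and 63.5 CPM in SCF plus 1 ng/mL TGF-b and 212 and 115 CPM in SCF plus 10 ng/mL TGF-b, count ratios to SCF of 283 (95% counting interval 50.5 to 11228) and 602 (108 to 23805). Without SCF it had 0 counts in both IL-3 libraries, 3 at 1 ng/mL TGF-b and 35 at 10 ng/mL. Since it passed the filter through the groups with TGF-b, its calls are counted but support nothing here.

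The chymase gene Cma1, 318 kb downstream, was among the most abundant messages in every library, and its log2 differences were 0.03 ± 0.14 in SCF against IL-3, -0.23 ± 0.14 and -0.25 ± 0.14 with 1 and 10 ng/mL TGF-b under SCF, and -0.32 ± 0.14 with TGF-b alone, none past the test. Mcpt8, which encodes a protease best known from basophils, had 24 counts in SCF against 3 in IL-3 alone, a count ratio of 7.49 (95% counting interval 2.27 to 38.8); its adjusted p of 0.0449 was between 0.121 and 0.251 when any of the 4 libraries was left out. The connective tissue chymase gene Mcpt4 and the chymase gene Cma2 passed no test in these 4 comparisons. Mcpt9 had 11 counts in all and was below the filter.

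None of the other granzyme genes of the cluster was expressed at a level comparable to Gzmb. Gzmc, Gzmd, Gzme, Gzmf, Gzmg and Gzmn, which lie between Gzmb and Ctsg, had 2, 9, 7, 2, 0 and 1 counts over all 10 libraries, out of 17583341 gene counts. A count of 0 over all libraries allows up to 0.171 CPM. Reads that fit several near-identical granzyme or chymase genes may have been discarded, since between 37.2% and 55.6% of all counted reads were listed as not uniquely aligned.

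Within 500 kb of Gzmb the annotation places 39 other genes, of which 34 had a count, 19 were tested and 16 of those are protein coding. Outside the protease cluster, the leukotriene B4 receptor gene Ltb4r1 had 26.5 and 29.0 CPM in SCF, 3.79 and 2.97 CPM in SCF plus 1 ng/mL TGF-b and 6.70 and 5.43 CPM in SCF plus 10 ng/mL TGF-b. These were falls of -2.99 ± 0.38 and -2.17 ± 0.35 on the log2 scale, with adjusted p = 0.00011 and 0.000533. Its neighbour Ltb4r2, a second leukotriene B4 receptor gene, fell by -2.19 ± 0.44 with 10 ng/mL TGF-b under SCF (adjusted p = 0.00385, and 0.0502 without the first library of SCF plus 10 ng/mL TGF-b) and by -2.44 ± 0.47 with TGF-b alone (adjusted p = 0.0056, and 0.0839 without the 1 ng/mL library). Ltb4r1 and Ltb4r2 lie next to each other on the same strand and do not overlap in the annotation used. Whether longer transcripts added reads of one to the other was not tested. Ripk3, a kinase of necroptosis, rose in SCF to 92.1 and 110.3 CPM against 43.5 and 35.8 CPM in IL-3 alone (log2 fold change 1.33 ± 0.22, adjusted p = 0.00113). The other protein-coding genes tested in the window, Khnyn, Sdr39u1, Nynrin, Cenpj, Parp4 and Pspc1, passed no test in these 4 comparisons.

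**Figure D3:**
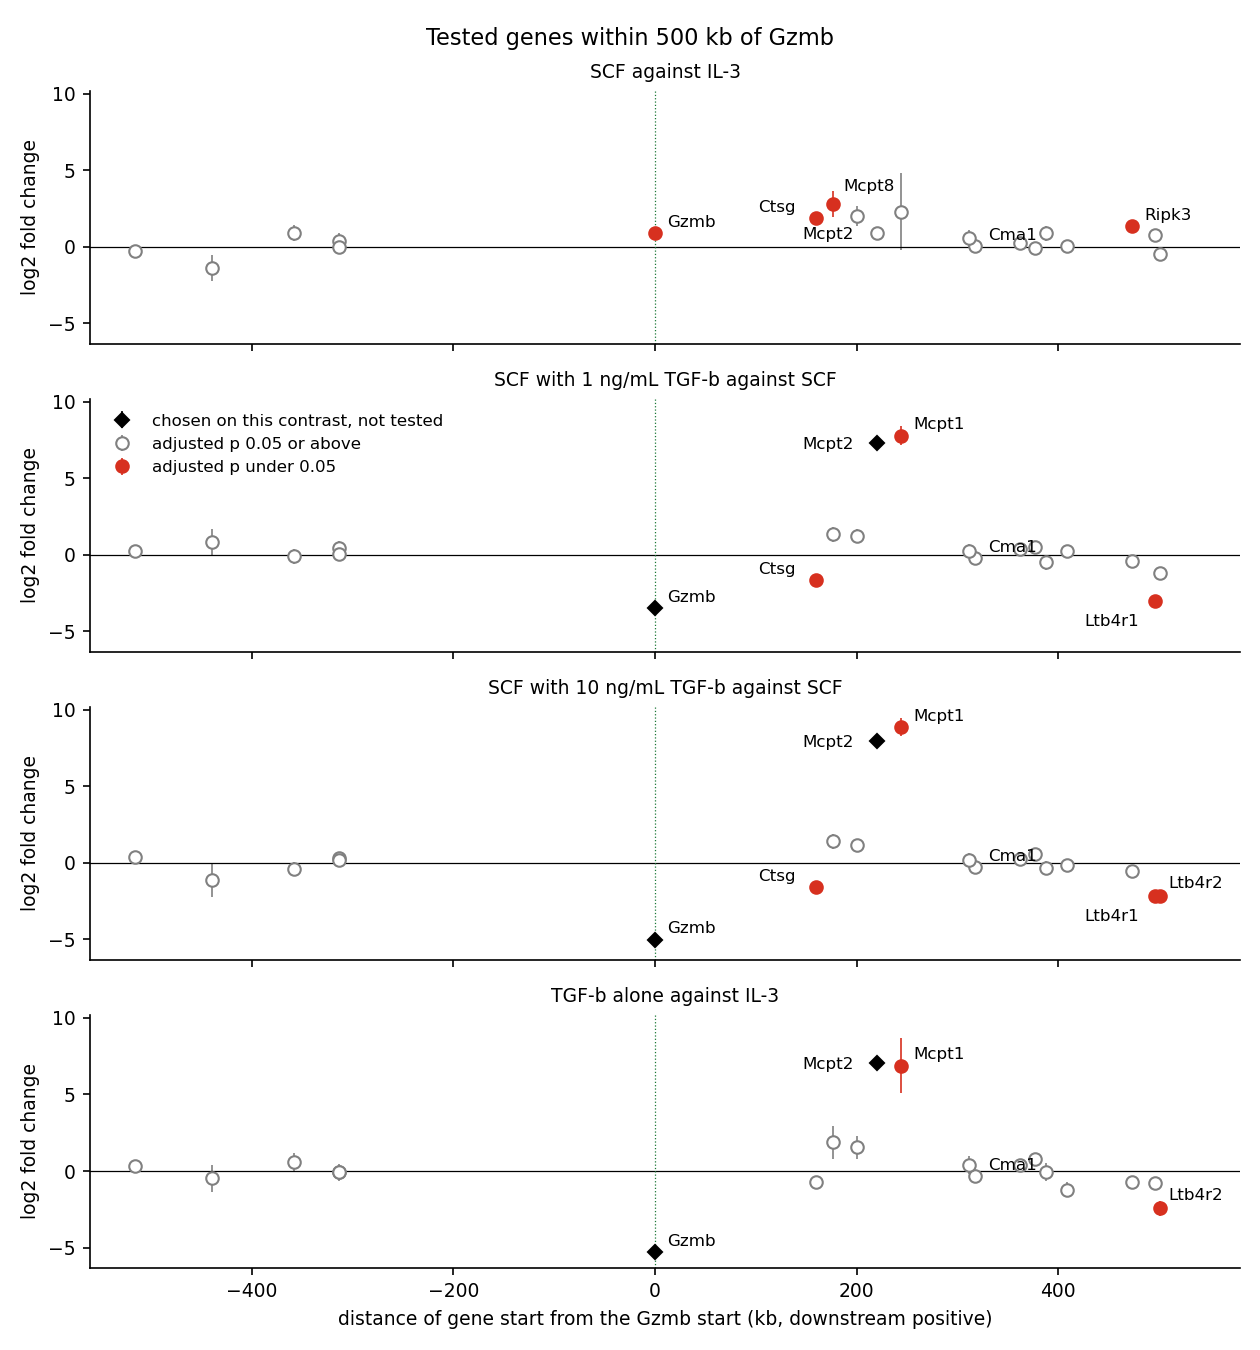
Log2 fold change (vertical, with SE bars) of Gzmb and the 19 other tested genes within 500 kb, against the distance of each gene's start from the Gzmb start in kb, in 4 comparisons. Filled red points have an adjusted p under 0.05, open grey points do not, and black diamonds are Gzmb and Mcpt2 in the 3 comparisons with TGF-b, which they were chosen on, without a test. Gzmb and Ctsg are below 0 and Mcpt1 and Mcpt2 above 0 in both comparisons of SCF plus TGF-b with SCF, and no gene on the other side of Gzmb from the cluster is called.

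Of 22 genes of granzyme maturation, storage and release, 16 passed the filter, and serglycin was the 1 member called in all 4 of the main comparisons. In SCF against IL-3 alone 1 was called higher and 1 lower, where 9.17% of all tested genes were called. With TGF-b under SCF 1 was called lower at 1 ng/mL (4.64% of all) and 1 lower at 10 ng/mL (8.37% of all). With TGF-b alone 2 were called lower (3.48% of all). Srgn, the granule proteoglycan that holds granzyme B, had 4863 and 5030 CPM in SCF against 3146 and 2953 CPM in IL-3 alone, a log2 rise of 0.70 ± 0.11 (adjusted p = 0.00101, edgeR). It had 2706 and 2599 CPM in SCF plus 1 ng/mL TGF-b and 2295 and 2446 CPM in SCF plus 10 ng/mL TGF-b, falls of -0.90 ± 0.11 and -1.06 ± 0.11 against SCF (adjusted p = 9.6e-05 and 1.0e-05). With TGF-b alone it had 1574 CPM at 1 ng/mL and 1731 CPM at 10 ng/mL, a fall of -0.89 ± 0.11 against IL-3 alone (adjusted p = 0.000189). The directions of Srgn were those of Gzmb in each comparison, at a much smaller size.

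Beyond Srgn, no member of this list passed the test in SCF plus TGF-b against SCF at either dose. The closest was the cystatin gene Cst7, an inhibitor of cathepsins, at -0.40 ± 0.13 with 10 ng/mL (adjusted p = 0.0633), chosen for mention after its values were seen. In SCF against IL-3 alone the mannose 6-phosphate receptor gene Igf2r was lower (-1.78 ± 0.41, adjusted p = 0.0115), a call lost without the second IL-3 library (0.119) or the first SCF library (0.103). With TGF-b alone the lysosomal membrane gene Lamp1 was lower (-1.48 ± 0.35, adjusted p = 0.0245), a call lost on leaving out any of the 4 libraries (0.104 to 0.146) and with DESeq2 (0.243). Ctsc, which encodes the cathepsin that trims granzymes, stood between 255 and 369 CPM in all 10 libraries, and its log2 differences lay between -0.15 and 0.01 in these 4 comparisons, none past the test. Prf1, which encodes perforin, and the granzyme genes Gzma and Gzmk had 0 counts in every library, and Gzmm had 19 counts in all. The median log2 fold change of the 16 was 0.15 in SCF against IL-3, -0.15 and -0.12 with 1 and 10 ng/mL TGF-b under SCF, and -0.12 with TGF-b alone.

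The inhibitor Serpinb9 was the 1 of 8 listed inhibitor genes that passed the filter, and 3 of the 8 had 0 counts throughout. It had 32.0 and 37.8 CPM in SCF, 25.7 and 20.2 CPM in SCF plus 1 ng/mL TGF-b, 25.02 and 25.5 CPM in SCF plus 10 ng/mL TGF-b, and without SCF 31.1 and 24.6 CPM in IL-3 alone, 28.0 CPM in 1 ng/mL TGF-b and 24.9 CPM in 10 ng/mL TGF-b. It passed no test, with log2 differences of -0.58 ± 0.24 and -0.46 ± 0.24 with 1 and 10 ng/mL TGF-b under SCF, and its level varied far less between groups than that of Gzmb.

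All 13 listed substrates of granzyme B were tested. With 1 ng/mL TGF-b under SCF 3 were higher and 1 lower, where 4.64% of all tested genes were called. With 10 ng/mL 4 were higher and 1 lower (8.37% of all), and in SCF against IL-3 alone 1 was higher and 1 lower (9.17% of all). With TGF-b alone (3.48% of all) none was called by edgeR, DESeq2 or limma-voom, each with 2 at an unadjusted p under 0.05. These numbers moved with single libraries: with any 1 left out, 1 or 2 were called in place of 4 at 1 ng/mL, 2 or 3 in place of 5 at 10 ng/mL, and at most 1 in place of 2 in SCF against IL-3. Top1, DNA topoisomerase 1, had 148 and 132 CPM in SCF, 73.7 and 81.3 CPM in SCF plus 1 ng/mL TGF-b and 64.8 and 69.0 CPM in SCF plus 10 ng/mL TGF-b, falls of -0.86 ± 0.16 and -1.07 ± 0.16 (adjusted p = 0.00299 and 0.000304, the first 0.05002 without the first library of SCF plus 1 ng/mL TGF-b). Lmnb1, lamin B1, had 28.0 and 27.1 CPM in SCF against 11.9 and 2.11 CPM in IL-3 alone, a log2 rise of 1.85 ± 0.39 (adjusted p = 0.00769) that was 1.21 and did not pass without the second IL-3 library (adjusted p = 0.0711) and was 3.67 without the first.

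Among 38 listed regulators of granzyme B transcription in lymphocytes and members of the SMAD pathway, 33 passed the filter. The T-box factor gene Tbx21, a known activator of Gzmb in cytotoxic T cells, had 0 counts in every library, and Prdm1 and Irf4 had 2 and 1 counts in all. TGF-b called the SMAD feedback gene Skil higher in each setting. Skil, a corepressor of SMAD complexes, had 6.51 and 6.93 CPM in SCF, 65.7 and 79.5 CPM in SCF plus 1 ng/mL TGF-b and 107 and 105 CPM in SCF plus 10 ng/mL TGF-b. Its log2 rises were 3.42 ± 0.25 and 3.97 ± 0.24 under SCF and 3.08 ± 0.22 with TGF-b alone (adjusted p = 4.3e-07, 2.7e-08 and 2.7e-07). Smad7, an inhibitory SMAD, had 2.50 and 4.41 CPM in SCF and 2.59 and 4.91 CPM in IL-3 alone. It was higher by 2.87 ± 0.40 with 10 ng/mL TGF-b under SCF and by 2.99 ± 0.42 with TGF-b alone. With 1 ng/mL under SCF it was higher by 1.79 ± 0.45, and by 1.40 to 2.21 with single libraries left out. Smad7 passed the filter through the groups with TGF-b, so its calls are counted but support nothing here.

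The Id genes encode helix-loop-helix inhibitors of E-proteins. Id3 had 33.0 and 45.4 CPM in SCF, 47.2 and 86.1 CPM in SCF plus 1 ng/mL TGF-b and 328 and 167 CPM in SCF plus 10 ng/mL TGF-b. It rose by 2.68 ± 0.32 with 10 ng/mL under SCF (adjusted p = 3.7e-05) and by 2.12 ± 0.30 with TGF-b alone (adjusted p = 0.000369). Id2 went the other way under SCF, at 317 and 329 CPM with 1 ng/mL TGF-b against 512 and 603 CPM in SCF, a fall of -0.78 ± 0.13 (adjusted p = 0.00174). With 10 ng/mL it had 365 and 372 CPM, a fall of -0.60 ± 0.13 (adjusted p = 0.00876) that did not pass without the second SCF library (0.0982) or without the first (0.0875) or second (0.0615) library of SCF plus 10 ng/mL TGF-b.

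RUNX and AP-1 letters occur in the Gzmb promoter shown above, and with TGF-b under SCF 1 RUNX gene and 1 AP-1 gene were called. Of all tested genes 4.64% were called there at 1 ng/mL and 8.37% at 10 ng/mL. Whether any of these factors acts on Gzmb in these cells was not tested. In SCF plus TGF-b against TGF-b alone, Runx1 (-0.51 ± 0.14, adjusted p = 0.0143) and Junb (-0.92 ± 0.25, adjusted p = 0.0118) were called lower (edgeR). In that comparison 24.7% of all tested genes were called, 11.4% of them lower and 13.3% higher. Runx3, which is known to act on Gzmb in cytotoxic T cells, had 167 and 186 CPM in SCF plus 10 ng/mL TGF-b against 97.1 and 117 CPM in SCF, a log2 rise of 0.72 ± 0.15 (adjusted p = 0.006) that did not pass without the first SCF library (0.0944) or the second library of SCF plus 10 ng/mL TGF-b (0.0659). Batf, an AP-1 family factor, had 31.3 and 51.6 CPM in SCF plus 10 ng/mL TGF-b against 95.1 and 101 CPM in SCF, a fall of -1.26 ± 0.22 (adjusted p = 0.00105) that held without any single library. At 1 ng/mL Batf fell by -0.90 ± 0.21 (adjusted p = 0.0177), and the call was lost without either SCF library (0.0725 and 0.0911) or the first library of SCF plus 1 ng/mL TGF-b (0.171). With TGF-b alone Batf differed from IL-3 alone by -0.64 ± 0.23, which did not pass the test (adjusted p = 0.162). The other listed RUNX and AP-1 genes did not pass with 10 ng/mL under SCF and pointed both ways. Their log2 differences were -0.46 for Runx1, 0.61 for Jun, 0.13 for Junb, -0.98 for Fos and -0.37 for Fosl2. Cbfb, also on the list, differed by 0.83 ± 0.29 and did not pass (adjusted p = 0.0931, edgeR).

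In SCF against IL-3 alone, in which Gzmb rose, 7 of the 33 regulators were called lower and none higher, where 3.46% of all tested genes were called lower and 5.71% higher. Stat3, a signal transducer of cytokine receptors, had 134 and 118 CPM in SCF against 234 and 228 CPM in IL-3 alone, a fall of -0.88 ± 0.15 (adjusted p = 0.00172). Stat5a and Stat5b, transducers of the IL-3 receptor, fell by -0.79 ± 0.18 (adjusted p = 0.0111) and -0.71 ± 0.18 (adjusted p = 0.022). With single libraries left out 1 to 5 were called in place of 7, and 1 without the second IL-3 library or without the second SCF library; Stat5a and Stat5b did not pass without the second IL-3 library (0.158 and 0.172). The median log2 fold change of the 33 was -0.37 in this comparison, 0.06 and 0.13 with 1 and 10 ng/mL TGF-b under SCF, and 0.03 with TGF-b alone. With TGF-b under SCF 3 were called higher and 2 lower at 1 ng/mL (4.64% of all tested genes were called), and 5 higher and 3 lower at 10 ng/mL (8.37% of all). With TGF-b alone 4 were called higher and none lower (3.48% of all). Leaving Gzmb aside, no member of the 5 lists was called in 10 against 1 ng/mL TGF-b except Id3, whose call was lost with DESeq2, limma-voom, the 10 CPM filter and only the groups compared. None of the 70 tested was called in the interaction of TGF-b and SCF by edgeR (8 at an unadjusted p under 0.05), DESeq2 (5) or limma-voom (7). Of all tested genes 0.293% were called in that interaction, 0.116% higher and 0.178% lower.

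**Figure D4:**
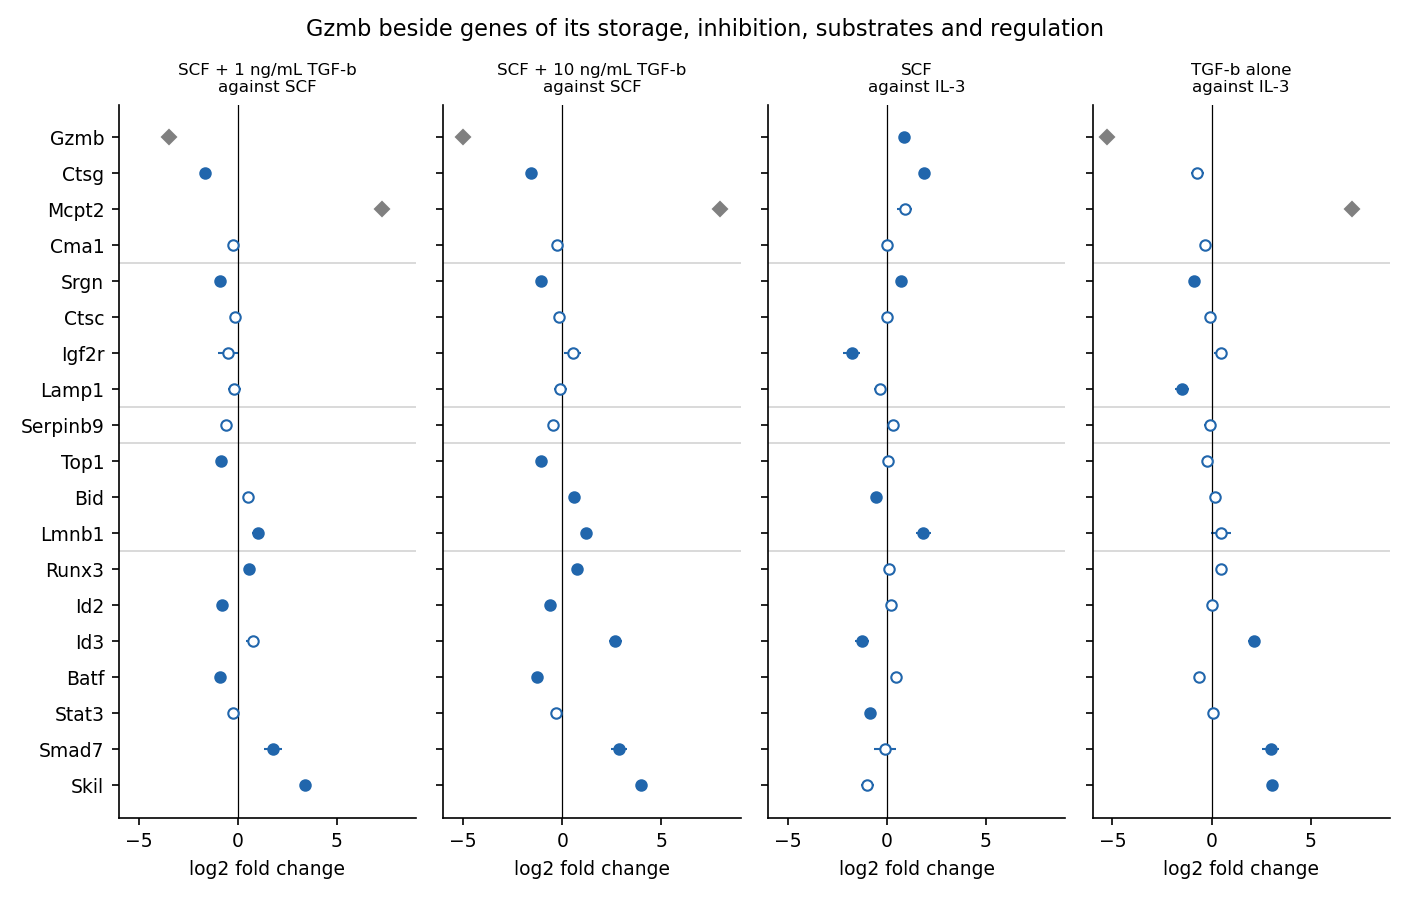
Log2 fold change (horizontal, with SE bars) of Gzmb and of genes of its locus, storage, inhibition, substrates and regulation, in 4 comparisons side by side; grey lines part the lists. Filled blue points have an adjusted p under 0.05, open points do not, and grey diamonds are Gzmb and Mcpt2 in the 3 comparisons with TGF-b, which they were chosen on, without a test. Srgn lies on the side of Gzmb in each panel and closer to 0, while Ctsc and Serpinb9 are open in all 4.

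The genes whose levels ran most like Gzmb over the 10 libraries were found by the Pearson correlation of log2(CPM + 1), among 514 genes that reached 20 CPM in some group mean and whose group means spanned at least 2 log2 units. The libraries share groups and scaling, so these correlations are descriptions. The 6 most like were Ccl2 (0.991), Ccl4 (0.961), Slc2a3 (0.954), Emilin2 (0.937), Aldh3a1 (0.92) and Anxa2 (0.916). Ccl2, a chemokine for monocytes, had 1409.7 and 1336 CPM in SCF, 549 and 525 CPM in SCF plus 1 ng/mL TGF-b and 361 and 445 CPM in SCF plus 10 ng/mL TGF-b, and without SCF 1094 and 932 CPM in IL-3 alone, 381 CPM in 1 ng/mL TGF-b and 316 CPM in 10 ng/mL TGF-b. It kept the order of the 6 groups of Gzmb except that SCF plus 10 ng/mL TGF-b and 1 ng/mL TGF-b overlapped, over a far smaller range. Slc2a3, a glucose transporter, had 208 and 202 CPM in SCF, 92.6 and 83.1 CPM in SCF plus 1 ng/mL TGF-b and 71.5 and 77.1 CPM in SCF plus 10 ng/mL TGF-b.

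Among the 6 most opposed were Smad7 (-0.979), Adamts5 (-0.973), Skil (-0.967), Ldlrad4 (-0.961) and Dhrs3 (-0.959). Adamts5, a matrix protease, had 6.01 and 5.67 CPM in SCF, 31.2 and 28.5 CPM in SCF plus 1 ng/mL TGF-b and 35.3 and 42.9 CPM in SCF plus 10 ng/mL TGF-b. Without SCF it had 4.66 and 8.42 CPM in IL-3 alone, 114 CPM in 1 ng/mL TGF-b and 108 CPM in 10 ng/mL TGF-b. Mcpt2, at -0.869, stood at place 24 among the opposed genes, and Ctsg, at 0.707, at place 46 among the like ones. With group means in place of libraries, 3 of the 6 most like and 3 of the 6 most opposed genes were the same, and with Spearman's correlation 3 and 4.

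**Figure D5:**
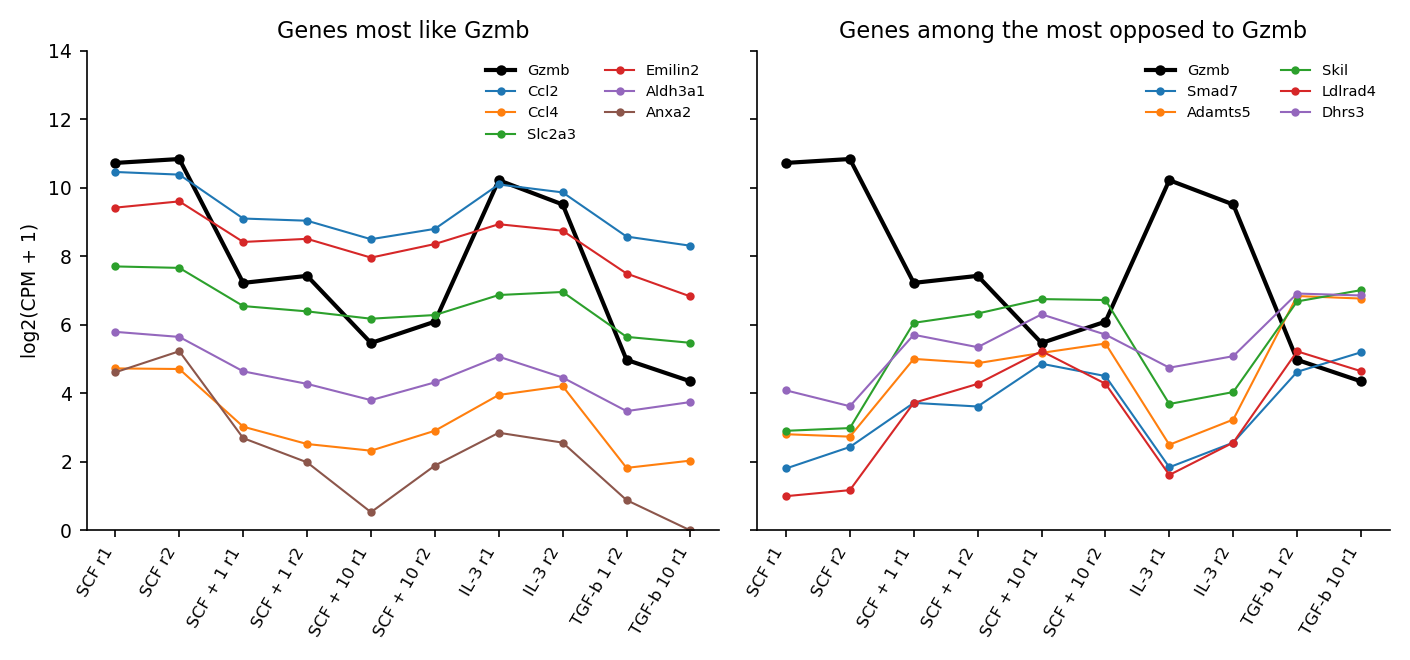
Level in log2(CPM + 1) of Gzmb (thick black line) and of the 6 genes most like it (left) and 5 of the 6 most opposed to it (right), in each of the 10 libraries; r marks the replicate number and the numbers after SCF or TGF-b the dose of TGF-b in ng/mL. Each like gene is higher in both SCF libraries than in the other 8, and none spans as many log2 units as Gzmb; each opposed gene shown is lower in the 4 libraries without TGF-b than in the 6 with it.

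The label of the cells was borne out by mast cell markers, and Gzmb did not come with a T or NK cell signature. All 11 mast cell markers, among them Kit, Fcer1a and Cpa3, passed the filter, with a summed level of 58733 to 66795 CPM in SCF, 40407 to 48880 CPM in the 4 libraries of SCF plus TGF-b, 44165 to 45297 CPM in IL-3 alone, and 39538 and 38055 CPM in 1 and 10 ng/mL TGF-b. Of 23 T and NK cell markers, 10 had 0 counts in every library, among them Cd3e, Cd4, Trac and Klrk1. Their summed level was 5.51 to 6.93 CPM in SCF, where Gzmb was 1693 and 1832 CPM, 8.00 to 14.7 CPM in SCF plus TGF-b, 4.91 to 5.18 CPM in IL-3 alone, and 2.55 and 7.77 CPM in 1 and 10 ng/mL TGF-b. The list ran higher in SCF plus TGF-b, where Gzmb was lower than in SCF. Ncr1, an NK cell receptor gene, was the 1 member that passed the filter, at 5.05 to 11.4 CPM in SCF plus TGF-b. The mast cell list, like Gzmb, was lower with TGF-b within the groups with SCF and within those without SCF, by far less. Across these sets it overlapped, reaching 48880 CPM in SCF plus 1 ng/mL TGF-b against at most 45297 CPM in IL-3 alone. The part of this list in the Gzmb result was not tested.

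Other cells with granule proteases were also scarce. Of 7 plasmacytoid dendritic cell markers 4 had 0 counts throughout, and their summed level was at most 4.24 CPM in any library; of 10 neutrophil markers 5 had 0 counts, with a sum of at most 2.55 CPM, and of 5 B cell markers 2 had 0 counts, with a sum of at most 1.09 CPM. The macrophage list summed to 14.3 to 36.3 CPM, with C1qb, C1qc and Marco at 0 counts. The 4 basophil genes summed to 458 to 702 CPM, nearly all of it Cd200r3, which mast cells also express, while Mcpt8 reached at most 24.98 CPM and Prss34 at most 17.9 CPM.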

How the data were processed

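The authors' deposited values are read counts per gene (unit: count), 10 libraries in 49671 gene rows and 5 rows that name no gene; those rows stayed out. Those rows held most of the reads: genes took 16.4% to 26.6% of a library, multiple alignments 37.2% to 55.6%, positions outside features 26.0% to 33.6% and ambiguous positions 2.04% to 2.85%. RNA was made into full-length SmartSeq2 cDNA and Nextera XT libraries and read as pairs of 38 bases, per the labels' protocols, which name no molecular identifiers and no strand. STAR, HTSeq and DESeq2 with GRCm38 (mm10) were used, per the submitters' processing notes, without versions. Loci came from GENCODE vM21, promoters from RefSeq (GRCm38.p6).

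Counts were fitted with edgeR 4.0.16 in R 4.3.3 (TMM scaling, filterByExpr, quasi-likelihood test, 1 mean per group over all 10 libraries, 4 residual degrees of freedom), which kept 11247 genes in 7 comparisons; genes with a Benjamini-Hochberg adjusted p under 0.05 within a comparison were called. The pipeline was tested on simulated data. CPM are on TMM-scaled library sizes, SE is the fold change over the root of F. Replicates differed beyond counting noise (chi-square of 3.30 to 4.24 per gene). Gzmb, the gene lists and the comparisons were chosen with earlier results of these data known, and TGF-b alone against IL-3, planned as a test of Gzmb, is given as a description. Named were Gzmb, its locus and tested neighbours, Ctsc, Srgn, Prf1, Serpinb9, per list and comparison up to 4 called members with at least 20 CPM in a group and the largest changes, of which the text gives a subset, and the 6 genes most like and most opposed; genes with few counts (Tbx21, Prdm1, Irf4, Gzma, Gzmk, Gzmm) were named after their values were seen. Some genes that the rule names are not reported here. Alternatives were DESeq2 1.42.0 (Wald test) and its size factors, limma-voom (limma 3.58.1), no filter, 10 CPM in at least 2 libraries, only the groups compared, a replicate block, no ribosomal RNA loci and each library left out.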

Additional observations from a re-analysis of the deposited data

How the results depend on the processing

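Precision is limited by 2 libraries per group, 1 per dose of TGF-b alone, and by depth, at which 3 counts are 1.26 to 2.55 CPM. Gzmb kept its direction in all 7 comparisons under each alternative run. Its rise in SCF against IL-3 (log2 0.87) did not pass with DESeq2 (0.87, adjusted p = 0.0755); the cause of that and of the changes listed here was not tested. Leaving out single libraries moved the log2 difference of Gzmb between 0.56 and 1.27 in SCF against IL-3, -3.57 and -3.35 with 1 ng/mL TGF-b under SCF, -5.34 and -4.71 with 10 ng/mL, -1.88 and -1.24 between the doses, -5.63 and -4.91 with TGF-b alone, 1.61 and 2.26 for SCF plus TGF-b over TGF-b alone, and 0.68 and 1.39 for the interaction.

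Over the whole table DESeq2 called 471 in place of 1031 in SCF against IL-3, 270 in place of 522 and 438 in place of 941 with 1 and 10 ng/mL TGF-b under SCF, 225 in place of 391 with TGF-b alone, and 1518 in place of 2780 for SCF plus TGF-b over TGF-b alone. Between the doses, in place of 2, none was called by DESeq2 (46 at an unadjusted p under 0.05), limma-voom (306), with a 10 CPM filter (235) or with only the groups compared (258), and 8 without a filter. Without a filter 601 were called with TGF-b alone and 125 in place of 33 in the interaction; with only the groups compared 712 with TGF-b alone. The interaction has no fit of only the groups compared. Without single libraries the counts were 237 to 788, 252 to 361, 447 to 625, 0 to 5 (between the doses), 143 to 259 (TGF-b alone), 1278 to 2738 and 0 to 30 (interaction).

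Replicate numbers are shared between groups, but the correlation of replicate deviations was 0.179 to 0.213 over the 3 pairs of SCF groups and -0.0062 to 0.024 over the 3 pairs with IL-3. The labels do not say what a number shares and there are 2 numbers per group, so libraries were not taken as paired; within SCF this is a hint from the data, and Gzmb was higher in replicate 2 in all 3 SCF groups. With a replicate block 859 genes were called with 1 ng/mL TGF-b under SCF, 5 between the doses, 718 with TGF-b alone and 102 in the interaction. List members called with the block were 4 of the locus in SCF against IL-3 and 5 at each dose under SCF, 3 of the storage list at each dose, 2 substrates with TGF-b alone, and 11 regulators in SCF against IL-3 and 7 with TGF-b alone.

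Among list members besides Gzmb, DESeq2 called 1 locus gene, 1 storage gene, 1 substrate and 2 regulators in SCF against IL-3, 2 substrates and 2 regulators with 1 ng/mL TGF-b under SCF, 2 substrates with 10 ng/mL, and 1 storage gene with TGF-b alone. Limma-voom called 1 locus gene in SCF against IL-3 and 1 with TGF-b alone, and 2 storage genes with 10 ng/mL under SCF. Without a filter 4 locus genes were called in SCF against IL-3, 5 at each dose under SCF, 8 regulators at 1 ng/mL and 1 substrate with TGF-b alone. With only the groups compared 3 regulators were called at 1 ng/mL and 1 substrate with TGF-b alone. Without single libraries, in SCF against IL-3, with 1 and 10 ng/mL under SCF and with TGF-b alone in turn, locus genes called were 1 to 2, 3, 3 to 4 and 1 to 2, storage genes 1 to 3, 1, 1 and 1, substrates 0 to 1, 1 to 2, 2 to 3 and 0 to 1, and regulators 1 to 5, 2 to 3, 5 to 6 and 3 to 4. Of the values of other named genes, 142 without single libraries were on the same side of the threshold and 38 lost the call, and in the other alternatives 345 were on the same side, 10 lost and 2 gained it. No sign turned.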
